A study of Caenorhabditis elegans with 2 samples.

Results

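The 47 genes described here encode the subunits of the worm's proton pump for acidic compartments, the vacuolar ATPase (V-ATPase), and the cathepsin-type proteases that work in such compartments. They are all protein-coding genes of the WBcel235 annotation whose symbol begins with vha-, cpr-, cpl- or asp-, plus unc-32, and were taken from 19973 protein-coding genes with an annotated start. Of the 47 genes, 21 encode V-ATPase subunits, 9 encode cysteine proteases (cpr and cpl) and 17 encode aspartyl proteases (asp). Where the transcription factor HLH-11 sat on the genome was measured by ChIP-seq, the sequencing of DNA recovered with a protein by an antibody, in 2 biological replicates of whole Caenorhabditis elegans at the L4 larval stage, 53 hours old and of mixed sex. Larvae had been synchronised by starvation at L1 after bleaching. The strain, OP396, carries unc-119(tm4063) III and the transgene insertion wgIs396, which expresses HLH-11 with a GFP-FLAG tag at its C terminus, and an antibody against GFP was used. Both replicates are of this 1 strain, so the tagged protein comes from an inserted transgene, and no condition was compared. Cell types were not separated, so a peak is a sum over all tissues of the larva.

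The V-ATPase is a rotary pump that spends ATP to move protons into lysosomes, endosomes and other acidic compartments, and in worms also across the apical membranes of the intestine, the excretory canal and the epidermis. Its V1 sector in the cytosol hydrolyses ATP, its V0 sector in the membrane carries the protons, and accessory proteins assist the assembled pump. The low pH activates cathepsins, the lysosomal proteases that degrade proteins, and in C. elegans several of them also act in the gut lumen. HLH-11 belongs to the basic helix-loop-helix proteins, is related to mammalian AP-4, and proteins of this class bind E-boxes, words of the form CANNTG.

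A gene was called bound when the summit of a peak in the authors' thresholded list lay between 1000 bp upstream and 500 bp downstream of one of its starts. The thresholded list holds 7863 peaks, which the authors kept by comparing the replicates' ranks (irreproducible discovery rate, IDR). Each peak carries a signal, a height from the authors' peak caller with no stated unit, which is used here to describe and rank peaks within 1 list (88.3 to 2943, median 181). Read counts are not part of the lists, and sequencing depth is therefore unknown. All intervals below are exact binomial 95% intervals over genes and cover the counting of genes only.

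HLH-11 peaks lay at most pump genes and most cysteine protease genes, and at fewer than 1 in 2 of the aspartyl protease genes. Of the V-ATPase genes, 16 of 21 were bound (76.2%, interval 52.8 to 91.8), beside 4247 of all 19973 protein-coding genes (21.3%). Of the cysteine protease genes, 7 of 9 were bound (77.8%, interval 40.0 to 97.2). Of the aspartyl protease genes, 7 of 17 were bound (41.2%, interval 18.4 to 67.1). The interval of the cysteine protease genes is wide because there are few of them, and it overlaps that of the aspartyl protease genes. Together the proteases had 14 bound genes of 26 (53.8%, interval 33.4 to 73.4), an interval that overlaps that of the pump. The share bound was above the background in each of the 3 families, although the aspartyl interval reaches below it. Over all 47 genes, 30 were bound (63.8%, interval 48.5 to 77.3) by 33 distinct peaks.

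**Figure D1:**
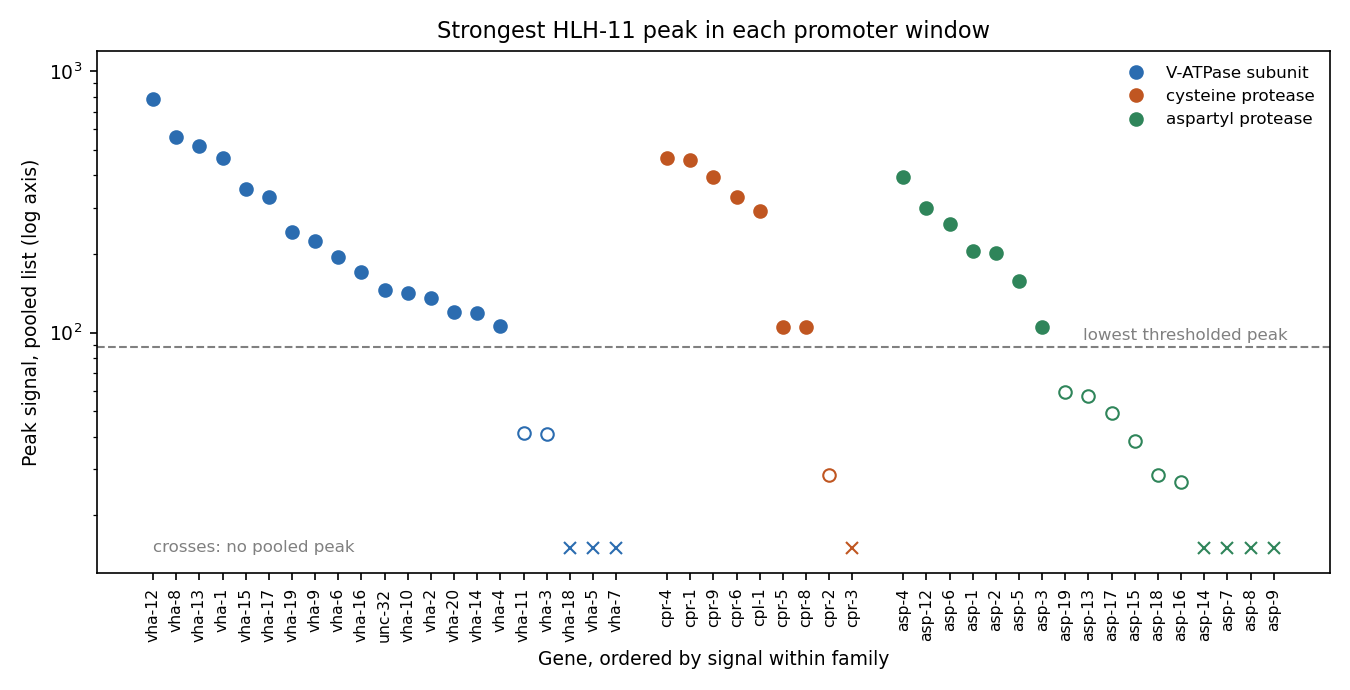
The strongest peak summit in each gene's promoter window is plotted by its signal in the pooled list (log axis), with genes ordered by signal within each family. Filled points are bound genes, open points have a summit in the pooled list that is below the lowest thresholded peak (dashed line, 88.3), and crosses mark genes with no pooled summit in the window. 16 pump genes, 7 cysteine protease genes and 7 aspartyl protease genes are filled.

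The letters at the summits differed between the pump and the protease genes, and a set of each is shown to make that visible. Each line gives the bases within 50 bp of a summit in WBcel235, read 5′ to 3′ on the gene's own strand, with the searched words in capitals. The pump lines are the 4 strongest whose summit lies outside untranslated exons, and vha-6. The protease lines are the strongest peaks of 6 genes, the summit that asp-12 and asp-6 share, and asp-5, while the cpr-9 summit at a tRNA gene is left out. The cpr-6 line and the second asp-12 line are shorter because annotated untranslated bases were left out.
vha-12, chrX:4190696-4190796, plus strand: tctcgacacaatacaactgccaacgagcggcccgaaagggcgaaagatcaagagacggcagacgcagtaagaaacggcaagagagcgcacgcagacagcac
vha-8, chrIV:6790603-6790703, plus strand: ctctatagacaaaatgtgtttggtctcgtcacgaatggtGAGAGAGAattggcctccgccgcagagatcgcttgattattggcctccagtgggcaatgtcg
vha-1, chrIII:9780769-9780869, plus strand: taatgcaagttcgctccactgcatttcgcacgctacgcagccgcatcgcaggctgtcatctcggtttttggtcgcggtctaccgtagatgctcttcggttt
vha-15, chrX:2237619-2237719, plus strand: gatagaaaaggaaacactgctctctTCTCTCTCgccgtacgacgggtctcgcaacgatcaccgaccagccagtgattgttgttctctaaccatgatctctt
vha-6, chrII:11438578-11438678, minus strand: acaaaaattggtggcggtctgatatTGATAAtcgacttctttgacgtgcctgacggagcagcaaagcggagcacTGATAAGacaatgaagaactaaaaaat
cpr-4, chrV:6614518-6614618, plus strand: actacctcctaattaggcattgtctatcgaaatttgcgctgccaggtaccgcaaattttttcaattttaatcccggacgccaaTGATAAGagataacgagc
cpr-1, chrV:11975368-11975468, plus strand: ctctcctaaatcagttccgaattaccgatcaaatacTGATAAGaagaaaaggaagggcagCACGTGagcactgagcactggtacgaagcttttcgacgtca
asp-4, chrX:13221531-13221631, minus strand: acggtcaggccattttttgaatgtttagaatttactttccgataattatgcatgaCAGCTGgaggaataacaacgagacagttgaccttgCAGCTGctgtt
cpr-6, chrX:6607120-6607206, plus strand: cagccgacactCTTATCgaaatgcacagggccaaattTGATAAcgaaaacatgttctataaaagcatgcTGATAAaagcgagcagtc
asp-12, chrV:8270063-8270163, plus strand: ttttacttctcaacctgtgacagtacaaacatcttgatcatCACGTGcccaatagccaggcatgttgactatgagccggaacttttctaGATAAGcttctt
cpl-1, chrV:16595481-16595581, minus strand: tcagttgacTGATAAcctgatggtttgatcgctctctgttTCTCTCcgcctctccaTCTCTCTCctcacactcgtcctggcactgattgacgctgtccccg
asp-12, chrV:8269111-8269209, plus strand: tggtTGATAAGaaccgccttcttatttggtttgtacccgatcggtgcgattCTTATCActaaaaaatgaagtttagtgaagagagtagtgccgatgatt
asp-5, chrV:8272135-8272235, plus strand: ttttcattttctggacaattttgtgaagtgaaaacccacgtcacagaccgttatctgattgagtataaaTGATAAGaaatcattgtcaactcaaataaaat
The capitals mark 5 words on either strand. The first is TGATAA and the second, which overlaps it wherever a G follows, is CTTATC, and both are called GATA words here. The others are the repeat GAGAGA and a pair of E-boxes, of which CACGTG stands at cpr-1 and once at asp-12, whereas CAGCTG stands at asp-4. GATA words stand in 7 of the 8 protease sequences shown and in 1 of the 5 pump sequences, vha-6. The lines are a choice, and the cpr-9 summit left out has no GATA word, so this tally only describes what is printed. Over all summits a GATA word stood at 15 of 17 protease and 1 of 16 pump summits, beside 27.6% of all promoter summits.

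Among the subunits of the V1 sector, 7 of 9 genes were bound, and their peaks included the strongest of the whole pump. The highest was at vha-12, which encodes the B subunit of the ATP-hydrolysing head, with a signal of 784 (rank 326 of 7863) at 348 bp upstream. It ranked 350 in replicate 1 (signal 332) and 321 in replicate 2 (signal 458), each on the scale of its own list. The 2 replicates thus placed it almost alike. The gene for the other head subunit, A, is vha-13, and its peak had a signal of 519.5 (rank 785) at 573 bp upstream, with ranks of 844 and 790 in replicates 1 and 2. That summit falls in an untranslated exon of the neighbouring gene cept-2. The stalk subunit E gene vha-8 had a signal of 559.8 (rank 682) at 421 bp upstream, with ranks of 625 and 752 in the replicates. This summit also lies 165 bp upstream of C17H12.2, which runs the opposite way, and is nearer to that gene than to vha-8.

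The remaining bound V1 genes had weaker peaks. The peak of vha-15, for an H subunit, had a signal of 354 (rank 1515) at 242 bp upstream, and ranked 1592 in replicate 1 and 1613 in replicate 2. At the F subunit gene vha-9 the signal was 224 (rank 2994), with ranks of 2910 and 3243 in the replicates. The G subunit gene vha-10 had a signal of 142 at 421 bp upstream, inside an intron of trpp-8. The weakest V1 peak was at vha-14, for the D subunit of the central rotor, with a signal of 119 (rank 6124). It ranked 5846 in replicate 1 and 8474 in replicate 2, so it was not among the strongest 7863 peaks of replicate 2. The V1 genes without a thresholded summit in the window were vha-11, for the C subunit, and vha-18, for a second H subunit. The H subunit genes therefore differed, with vha-15 bound and vha-18 without even a pooled summit in its window. The nearest thresholded summit to vha-18 lay 3665 bp downstream of its start.

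In the V0 sector, 7 of 10 genes were bound, with a median strongest signal of 171, against 354 for the V1 genes and 205 for all bound genes. The proton-carrying c ring is encoded by vha-1, vha-2 and vha-3, with the related vha-4 for the c″ subunit. The peak of vha-1 had a signal of 468 (rank 950) at 435 bp upstream, with ranks of 929 and 1030 in replicates 1 and 2. It lies between vha-1 and sqv-3, which run in opposite directions, and is 465 bp upstream of sqv-3. The weaker peak of vha-2 (signal 136, rank 5375) lies 75 bp downstream of its start, in its coding exon. At vha-4 the signal was 106 (rank 6776), the lowest among the bound pump genes, at a summit 122 bp upstream that also lies 178 bp upstream of T01H3.5. Of the ring genes, vha-3 was not bound, although a summit with a signal of 404 lay 1016 bp upstream of its start, 16 bp outside the window.

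The a subunit, which couples the ring to the stator, has 4 genes in C. elegans, and 2 of them were bound. The peak of vha-6, the form known from the intestine, had a signal of 194 (rank 3590) at 176 bp upstream. It ranked 4007 in replicate 1 (signal 83.6) and 3979 in replicate 2 (signal 99.8). The peak of unc-32, the form known from neurons, had a signal of 146 (rank 4992) at 273 bp upstream, with ranks of 7404 and 4289 in replicates 1 and 2. A far stronger peak, with a signal of 2133 and rank 18, lies 1308 bp upstream of unc-32, outside its window and inside that of lin-9. The other a subunit genes, vha-5 and vha-7, had no pooled summit in the window. Their nearest thresholded summits lay 1847 bp (signal 156) and 2948 bp (signal 159.6) upstream. The a subunit genes of the pump thus fell on both sides of the call.

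Each of the remaining V0 and accessory genes was bound. The d subunit gene vha-16 had a signal of 171 (rank 4224) and the e subunit gene vha-17 a signal of 332 (rank 1678). The vha-17 summit lies 379 bp upstream of that gene and 333 bp upstream of F49C12.12, which runs the opposite way and is nearer. Of the accessory genes, vha-19, related to the mammalian pump protein Ac45, had a signal of 242 (rank 2718) at 330 bp upstream. The second, vha-20, related to the prorenin receptor, had a signal of 120.0 (rank 6070) at 70 bp downstream, in its coding exon. Each bound pump gene had exactly 1 peak, and 14 of the 16 summits lay upstream of the start. Of the 16 peaks, 5 also lay in the window of a gene outside the 47, and for vha-8 and vha-17 the start of that gene was the nearer one. The other 11 (68.8%) lay in the window of 1 gene only, beside 81.4% of all promoter peaks, a share near this one for 16 peaks.

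Among the cysteine proteases, 5 of the 7 bound genes had strong to middling peaks and the last 2 shared a weak one. The peak of cpr-4, a cathepsin B-like protease, had a signal of 468 (rank 953) at 106 bp upstream. It ranked 1317 in replicate 1 (signal 173) and 798 in replicate 2 (signal 297). The peak of cpr-1, also cathepsin B-like, had a signal of 458 (rank 994) at 133 bp upstream, with ranks of 904 and 1032 in the replicates. These are the strongest protease peaks, and they lie closer to the start than the 4 strongest pump peaks do. At cpr-6, another cathepsin B relative, the signal was 332 (rank 1681), and its summit lies 37 bp upstream of the start.

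Both cpl-1 and cpr-9 had 3 peaks in their windows. The gene cpl-1 encodes cathepsin L, which is required in the embryo. Its strongest peak (signal 293, rank 2036) lies 185 bp upstream of the upstream start, with ranks of 2011 and 2160 in replicates 1 and 2. Its other peaks had signals of 257 and 232 and fall in introns of cpl-1, at 748 bp upstream and 488 bp downstream of an alternative start. At cpr-9, the strongest summit (signal 395, rank 1259) lies 851 bp upstream at a tRNA gene, within the window of gcy-33 as well. The other cpr-9 summits had signals of 194 at 652 bp upstream and 156 at 52 bp downstream, the last in an untranslated exon of cpr-9. Both upstream summits are nearer to gcy-33, which runs the opposite way, at 405 bp and 604 bp upstream of it. With each summit given to the nearest start alone, the strongest cpr-9 signal was 156. The nearest cpr-9 summit to the start is therefore also its weakest.

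The divergent neighbours cpr-5 and cpr-8 shared 1 peak with a signal of 105 (rank 6809). Its summit falls 17 bp downstream of the start of cpr-5, in an untranslated exon, and 583 bp upstream of cpr-8. It ranked 5616 in replicate 1 and 8967 in replicate 2, below the strongest 7863 of that replicate. The calls of cpr-5 and cpr-8 thus rest on the weakest protease peak and on replicate 1 more than on replicate 2. The cysteine protease genes without a call were cpr-2, with a pooled summit of signal 28.5, and cpr-3, with none.

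The aspartyl proteases had 1 strong peak, at asp-4, and otherwise peaks with signals of 105 to 301. The gene asp-4 encodes a cathepsin D-like lysosomal protease that is known in worms for its part in necrotic neuron death. Its peak had a signal of 395 (rank 1264) at 119 bp upstream, with ranks of 1224 and 1372 in replicates 1 and 2. Its partner in that role, asp-3, had a far weaker peak, with a signal of 105 (rank 6803) at 111 bp downstream of the start, in an untranslated exon. The ranks of asp-3 in the replicates were 6850 and 6564. The intestinal protease gene asp-1 had a signal of 206 (rank 3324), at 870 bp upstream, and asp-2 a signal of 202 (rank 3396), at 142 bp upstream. The median strongest signal of the 7 bound aspartyl protease genes was 206, against 332 for the 7 cysteine protease genes. The cysteine median counts cpr-9 by the peak that is nearer to gcy-33.

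A run of 3 aspartyl protease genes on chromosome V, asp-6, asp-12 and asp-5, was bound throughout. The gaps between the genes are 272 bp and 328 bp. A summit with a signal of 259.8 (rank 2440) lies between asp-6 and asp-12, 224 bp upstream of the one and 49 bp upstream of the other. It is thus in both windows of this divergent pair. It ranked 2092 in replicate 1 and 2808 in replicate 2. A second asp-12 peak, with a signal of 301 (rank 1971), falls in an intron of asp-12, 530 bp upstream of its downstream start. The asp-5 peak (signal 157, rank 4642) lies 200 bp upstream of asp-5. Its replicates were the least alike among these aspartyl genes, with rank 3168 in replicate 1 (signal 100.2) and rank 7208 in replicate 2 (signal 56.7).

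The other runs of neighbouring aspartyl protease genes were mostly unbound. In the run of asp-17, asp-16, asp-15 and asp-1, the last was the only gene bound. The pairs asp-8 and asp-7, and asp-19 and asp-18, had no thresholded summit in any window. Of the 11 aspartyl genes within 10000 bp of another, 4 were bound, and of the 6 that stand alone, 3 were bound. Besides those named, asp-9, asp-13 and asp-14 were unbound. Of the pump genes, vha-11 and vha-3 form such a pair, on the same strand with 892 bp between them, and neither was bound. The pair vha-1 and vha-2, 400 bp apart on the same strand, had a peak each.

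**Figure D2:**
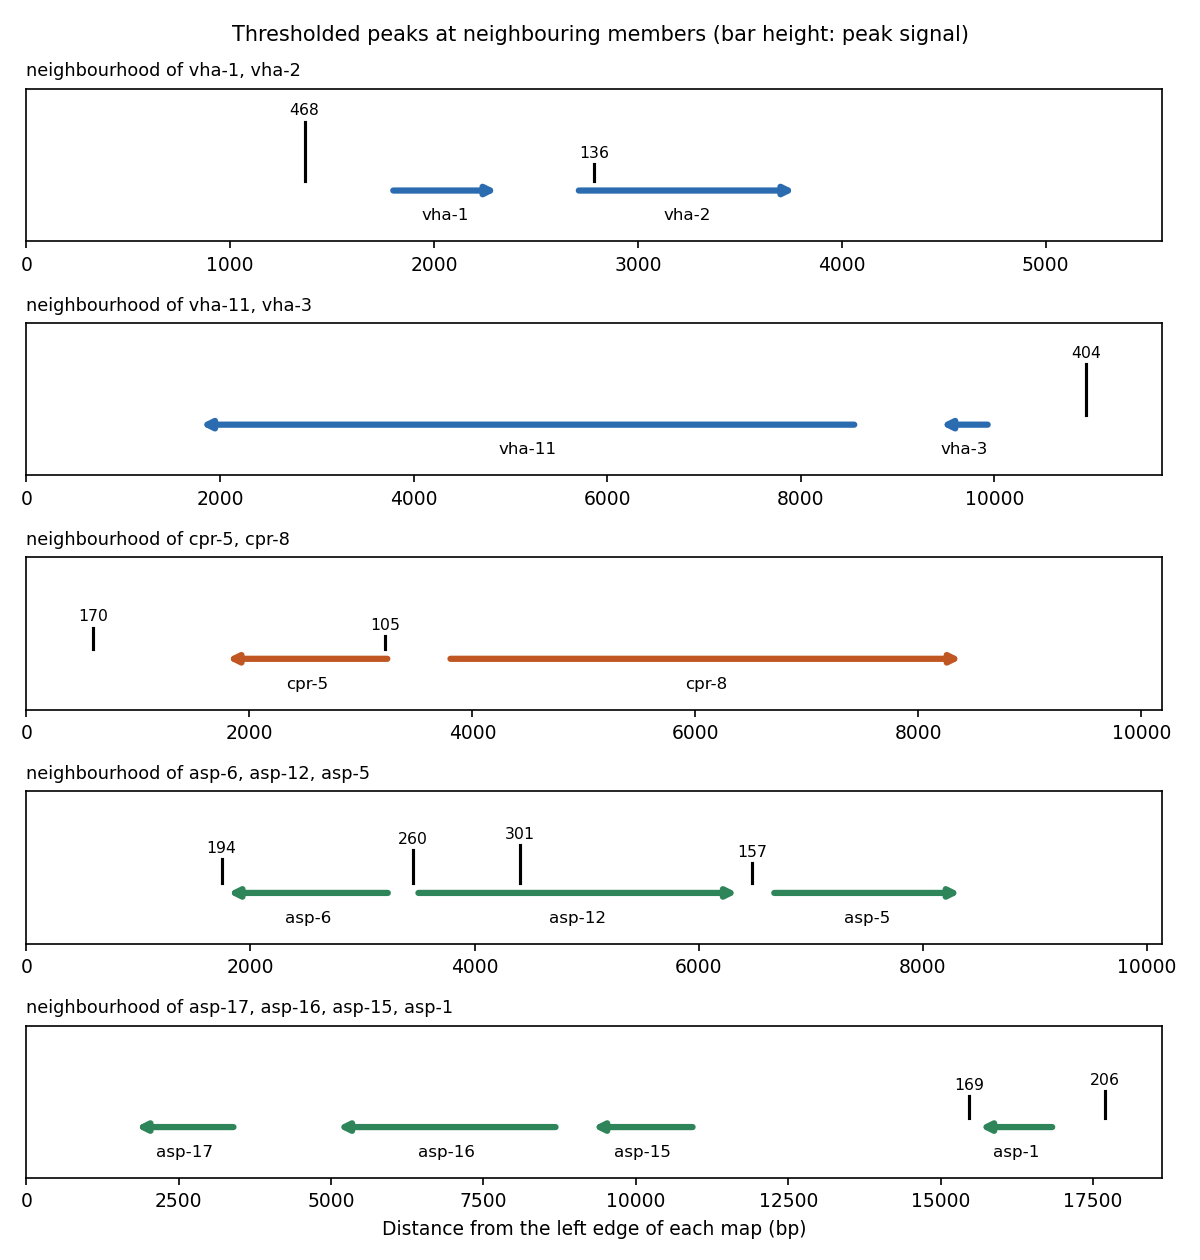
Each map shows a run of neighbouring genes of 1 family, with genes as arrows in the direction of transcription and thresholded summits as vertical bars whose height and number give the peak signal. The horizontal axis is the distance in bp from the left edge of each map. The run of asp-6, asp-12 and asp-5 has a peak beside or within each gene, while the peak near vha-3 (404) lies beyond its window and asp-17, asp-16 and asp-15 have none at their starts.

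The unbound members were of different kinds when the weaker part of the pooled list was read. That list is labelled as peaks and background given to IDR, and its signals reach down to 19.6. A pooled summit below the threshold may therefore be background and not a site of HLH-11. Of the 17 unbound genes, 9 (52.9%) had a pooled summit in the window below the threshold, beside 3863 of 15726 (24.6%) among all unbound genes. They were 6 of the 10 aspartyl genes, 2 of the 5 pump genes and 1 of the 2 cysteine protease genes. The members just inside the threshold were asp-3, cpr-5 and cpr-8 at 105 and vha-4 at 106. Those just outside were asp-19 at 59.3, asp-13 at 57.4 and asp-17 at 49.2, followed by vha-11 at 41.4 and vha-3 at 40.8. No member had its strongest summit between 59.3 and 105, so that the calls of these genes do not turn on a small shift of the threshold.

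Peak strength at the members was close to that of bound genes in general. The median strongest signal was 209 at the 16 bound pump genes (106 to 784), 277 at the 14 bound protease genes (105 to 468) and 205 at all 4247 bound genes. The strongest peak belonged to the strongest 1965 peaks of the thresholded list in 11 of the 30 bound members (36.7%), beside 30.4% of all bound genes. By family these were 6 of 16 pump genes, 4 of 7 cysteine protease genes and 1 of 7 aspartyl protease genes. The summit of the strongest peak lay upstream of the start in 26 of 30 bound members (86.7%), beside 89.0% of all bound genes. Its median distance was 258 bp upstream at pump genes and 164 bp upstream at protease genes, with 219 bp for all bound genes. Of the 33 member summits, 23 (69.7%) lay outside any protein-coding gene, beside 66.6% of all 4171 promoter summits.

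**Figure D3:**
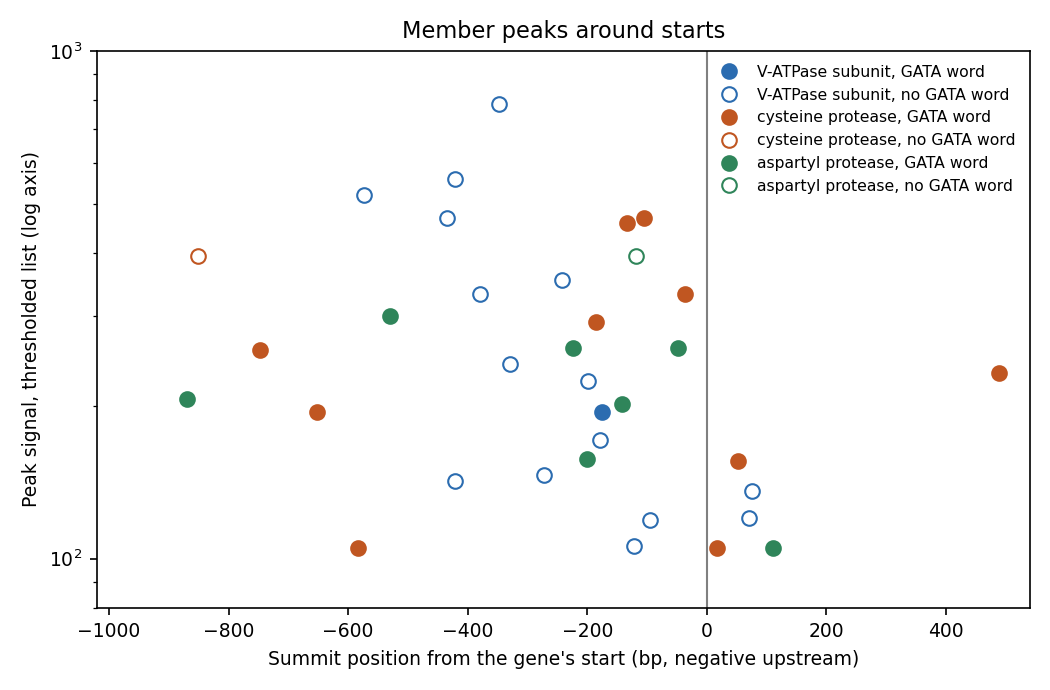
Each point is a peak in the promoter window of a member, placed by its summit's distance from the gene's start (bp, negative upstream) and its signal in the thresholded list (log axis). Filled points have TGATAA or CTTATC within 50 bp of the summit. Pump peaks are open apart from vha-6, and protease peaks are filled apart from asp-4 and the cpr-9 peak at a tRNA gene, and peaks shared by a pair of members appear once for each gene.

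The replicates' own lists held nearly all of these peaks. A summit within 100 bp was found among the strongest 7863 peaks of replicate 1 for 33 of 33 member peaks and among those of replicate 2 for 31 of 33. Both replicates had it for 31 of 33 (93.9%), beside 80.4% of all promoter peaks. The exceptions were the vha-14 peak and the one shared by cpr-5 and cpr-8. In the whole lists of 30000 peaks, each of the 33 was found in both replicates, beside 95.8% of all promoter peaks. These lists reach down to signals of 9.06 in replicate 1 and 14.7 in replicate 2, so a match in them is weak support. The thresholded list was itself made from both replicates, so such agreement is partly built in, for the members and for all promoter peaks alike. P-values were not computed for this reason, and because no groups were compared.

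**Figure D4:**
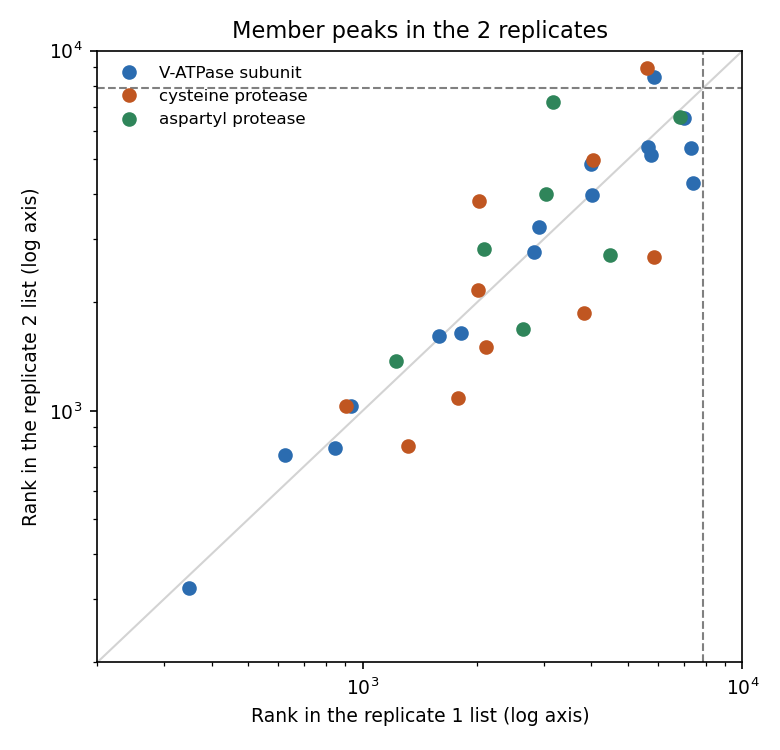
The rank of each member peak in the list of replicate 1 is plotted against its rank in the list of replicate 2 (both on log axes, 1 being the strongest). The dashed lines stand at rank 7863, and the grey line marks equal ranks. Points above the horizontal line are vha-14 and the peak shared by cpr-5 and cpr-8, while asp-5 is the point farthest above the grey line among the aspartyl genes.

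The pump and the proteases differed in the letters at the summits. Of the 17 protease summits, 15 (88.2%) had TGATAA or CTTATC within 50 bp, a word that intestinal GATA factors such as ELT-2 are known to bind in C. elegans. Of the 16 pump summits, 1 (6.25%) had either, at the intestinal form vha-6. Among all 4171 promoter summits the share was 27.6%, so the proteases lay above it and the pump below. By family the counts were 9 of 10 cysteine and 6 of 7 aspartyl protease summits. These summits are not all from separate genes, since cpl-1 and cpr-9 have 3 each and asp-12 has 2. Both words together stood at 11 of 17 protease summits, 1 of 16 pump summits and 13.1% of all. Neither HLH-11's contact with these letters nor binding by a GATA factor was measured.

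Beside the summits the words were less frequent at the proteases than at the summits themselves. In windows of the same width 300 bp to either side, chosen after seeing the data, a word was found in 4 of 34 protease windows (11.8%), 4 of 32 pump windows (12.5%) and 12.9% of all. The 4 protease windows were all at cysteine protease peaks (4 of 20), a share above that of all flanking windows. None of the 14 aspartyl windows held a word. Both counts are near the share of all flanking windows for so few windows. Within 200 bp of the summit, each of the 17 protease peaks had a word, at a median distance of 14 bp, so the 2 without one within 50 bp had it farther out. Of the pump peaks, 6 of 16 had one within that distance, at a median of 148 bp, and of all promoter peaks 2332 of 4171 had one, at a median of 49.0 bp. Over the whole promoter window of 1501 bp, TGATAA stood in 17 of 21 pump genes, 9 of 9 cysteine protease genes, 17 of 17 aspartyl protease genes and 78.9% of all genes. The 17 pump genes include unbound ones.

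Base composition differed between the same summits. The median GC content within 50 bp was 51.5% at pump summits, 40.6% at protease summits and 43.6% at all promoter summits. Among all promoter summits, a GATA word stood in 45.8% of those at or below the median GC content and in 9.35% of those above it. Split at the same point, also after seeing the data, the protease summits had a word in 12 of 13 below and 3 of 4 above. The pump summits had one in 1 of 5 below and 0 of 11 above. On both sides the protease share was higher than that of all promoter summits, with only 4 peaks on the smaller side. The pump shares were lower, but 1 of 5 and 0 of 11 are near the background shares for so few peaks. The part of base composition in the difference between the families was not tested beyond this split.

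The protease summits without a GATA word were those of asp-4 and the cpr-9 peak at a tRNA gene. The asp-4 summit instead had CAGCTG at 2 places, as printed above. Without the peaks at short non-coding RNA genes, a choice made after seeing the data, the protease count was 15 of 16 (93.8%). Together with cpl-1, whose intronic summit at 748 bp upstream has CAGCTG beside a GATA word, asp-4 was 1 of 2 members with this E-box. CACGTG was found at cpr-1 and at the intronic asp-12 summit. The other E-box searched, CACATG, stood at no member summit. Any of these E-boxes stood at 4 of 17 protease summits (23.5%), 0 of 16 pump summits and 16.5% of all promoter summits. Taking 3 counts as the limit that a count of 0 allows, and not the exact interval, the pump share could be up to 18.8%. The pump count cannot be told apart from the background at this number of peaks.

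The longer box TCACGTGA, which contains CACGTG and resembles the site that the mammalian lysosomal regulator TFEB binds, stood at 0 of 33 member summits, which by the same limit allows up to 9.09%, beside 0.743% of all promoter summits. It also stood in none of the 47 promoter windows of 1501 bp, beside 2.19% of all gene windows. The word is so rare that counts of 0 are not distinguishable from the background at these numbers. GAGAGA stood at 6 of 16 pump summits (37.5%), 1 of 17 protease summits (5.88%) and 23.8% of all promoter summits. The pump genes with it were vha-8, vha-15, vha-19, vha-9, vha-16 and unc-32, and the protease gene was cpl-1. Within 50 bp the pump count is near the background for 16 peaks. In the other word windows GAGAGA stood at 5 of 16 pump and 1 of 17 protease summits within 25 bp, beside 13.5% of all. Within 100 bp it stood at 10 of 16 pump and 3 of 17 protease summits, beside 36.7% of all. GAGAGA also varied with base composition, at 18.2% of all promoter summits at or below the median GC content and 29.5% of those above it. Over the whole windows the families fell in another order, with GAGAGA in 76.2% of pump, 77.8% of cysteine protease and 35.3% of aspartyl protease genes, beside 57.0% of all genes.

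**Figure D5:**
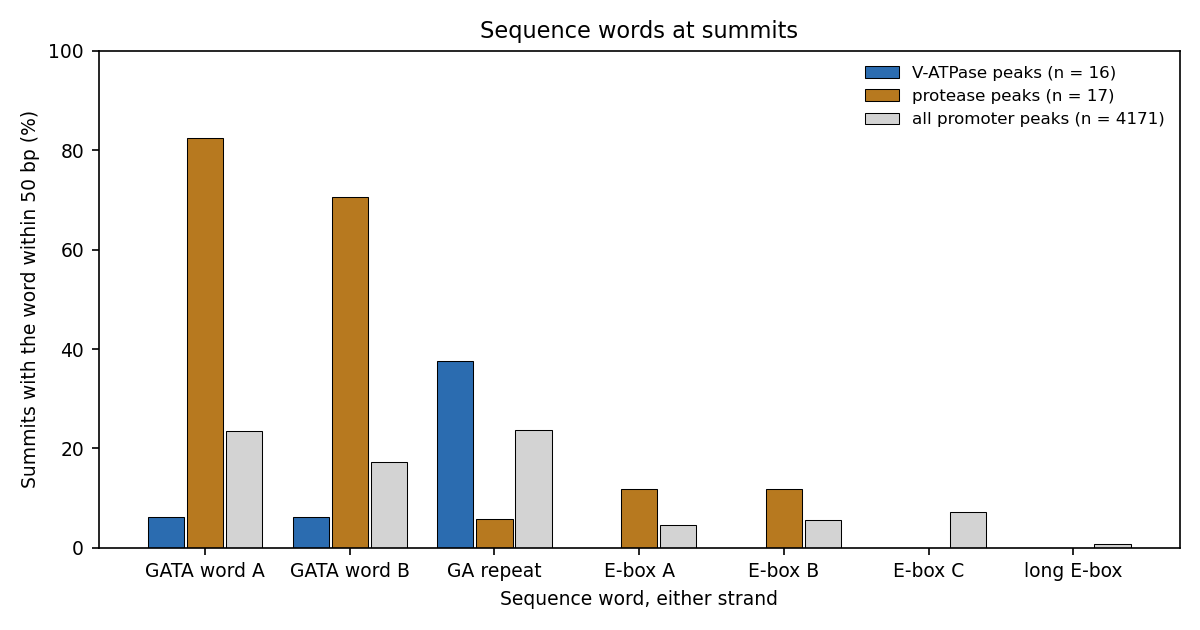
Bars give the percentage of summits with each word within 50 bp on either strand, for the pump peaks, the protease peaks and all promoter peaks. GATA word A is the word TGATAA, whereas GATA word B is the word CTTATC, and the GA repeat is the word GAGAGA. E-box A is the word CAGCTG, E-box B is the word CACGTG, E-box C is the word CACATG, and the long E-box is TCACGTGA. The GATA words stand at most protease summits (82.4% and 70.6%) and at 6.25% of pump summits.

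Position in the genome also set the families apart. The pump genes are spread over all 6 chromosomes, whereas the cysteine protease genes lie on V (8 genes) and X (1 gene). The aspartyl protease genes lie on V (13 genes), X (3 genes) and IV (1 gene). Among all protein-coding genes the bound share was 16.9% on V and 28.2% on X. On V, 6 of 8 cysteine protease genes and 5 of 13 aspartyl protease genes were bound, so both shares were above that of their chromosome. The aspartyl count is near that background for so few genes. It includes the neighbours asp-6, asp-12 and asp-5, of which asp-6 and asp-12 share a peak. The unbound pump genes lay mostly on IV, where 3 of 7 were bound, beside 18.1% of all genes there. On the 4 chromosomes I, II, III and X, each of the 12 pump genes was bound. Beside that, 22.9%, 20.6%, 25.4% and 28.2% of all genes on these chromosomes were bound. They are grouped here by that outcome and hold only 2 to 4 pump genes each, so no chromosome pattern can be read from them.

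Other genes of the lysosome were compared with the members through lists of 81 matched genes. Of these, 42 were bound (51.9%, interval 40.5 to 63.1), beside 21.3% of all protein-coding genes. Among 16 further proteases, 9 were bound, with the strongest peaks at pcp-1 (signal 530.0), a prolyl carboxypeptidase relative, and lgmn-1 (signal 395), a legumain relative. Both cystatin genes, cpi-1 and cpi-2, whose products inhibit cysteine proteases, were bound, with signals of 223 and 279. Of the pump's relatives and assembly factors, rbc-2 (signal 402) and rbc-1 (signal 191) were bound, and spe-5, a sperm form of the B subunit, was not.

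The bound shares of the hydrolases, membrane proteins and fusion factors had overlapping intervals. In that order these were 36.4% to 79.3%, 12.6% to 56.6% and 28.9% to 75.6%, beside 21.3% of all protein-coding genes bound. The interval of the membrane proteins (31.6% bound) includes that background. Of 22 other hydrolases, 13 were bound, led by aagr-2 (signal 587), an acid alpha-glucosidase relative, and asah-1 (signal 234), an acid ceramidase relative. Of 19 membrane proteins and transporters, 6 were bound, led by scav-1 (signal 274) and the zinc transporter gene cdf-2 (signal 245). Of 19 genes for lysosome formation and fusion, 10 were bound, led by rab-7 (signal 2856), the small GTPase of late endosomes, and hlh-30 (signal 755), the worm relative of TFEB. A GATA word stood at 11 of 14 summits of the hydrolases, 7 of 11 of the further proteases, 4 of 9 of the membrane proteins and 2 of 14 of the fusion group. The first 3 of these shares lay above the 27.6% of all promoter summits and the last below it, and with 9 to 14 peaks a group the membrane and fusion counts are near that background.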

How the data were processed

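HLH-11 ChIP-seq peak lists of 2 biological replicates were used: 1 list per replicate, 1 pooled list and the thresholded list. The pooled list is labelled as peaks and background used as input for IDR. Per the labels, chromatin was sonicated to 200 to 800 bp and positions refer to ce11. Per the accompanying notes, the lists derive from alignments and a control file, which was not analysed here. Which aligner and peak caller made them, and with which settings, is not given in the sources used here. The deposited files give each peak a signal, the height from the authors' caller on a scale that is not stated, so signals were compared only within a list. The −log10 q values that the authors deposited played no part in ranks. Each summit was taken from a further deposited value, its offset from the peak start.

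Starts, genes and sequence came from WBcel235 (Ensembl release 115 annotation and the RefSeq genome), whose chromosomes hold all ce11 peak ends. The windows, a 100 bp match between replicates and a 50 bp word window were fixed settings, with alternatives listed in the closing section. Every bound member was named by its strongest peak, all peaks were given for the 6 strongest genes of the pump and of the proteases, every unbound member was named, and so were the 2 strongest genes of each other list. Members, lists and words were chosen with earlier results of these data known, and 2 listed genes had no match in the annotation. Counts are described beside the background with no p-values. The assignment was tested on simulated data. Python 3.11.15, numpy 2.4.6, scipy 1.17.1 and matplotlib 3.10.9 were used.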

Additional observations from a re-analysis of the deposited data

How the results depend on the processing

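With only the strongest 3931 of the 7863 thresholded peaks, 9 of 21 pump genes, 25 of 81 other lysosome genes and 2467 of all genes (12.4%) were bound, and the median strongest pump signal was 354. Fewer peaks make each count lower by construction. In that setting 5 cysteine and 5 aspartyl protease genes were bound. From the strongest peaks of a single replicate the medians, on those lists' own scales, ranged from 95.1 to 118 at pump genes and from 131 to 179.8 at protease genes. Without replicate 1, vha-14, cpr-5 and cpr-8 were lost. Over the other settings 14 to 18 pump genes, 6 to 7 cysteine and 6 to 7 aspartyl protease genes were bound. The share of all protein-coding genes ranged from 17.2% to 26.7%. Its highest value and the 18 pump genes both came with the upstream limit of 2000 bp. Giving each summit to the nearest start alone lost vha-8, vha-17, cpr-8 and asp-6, an upstream limit of 500 bp lost vha-13, cpr-8 and asp-1, and one of 2000 bp added vha-3 and vha-5. Counting any overlap of the peak interval added vha-3. Within 25 bp of the summit CAGCTG stood at 1 of 33 member summits, beside 2.18% of all promoter summits. Within 100 bp CACATG stood at 1 of 33, beside 12.6% of all, and GAGAGA at 13 of 33, beside 36.7% of all. Of those 13, 10 were pump summits. TGATAA stood at 12 of 17 protease and 1 of 16 pump summits within 25 bp, beside 13.8% of all promoter summits. Within 100 bp it stood at 16 and 1, beside 35.9% of all. The settings for the other lysosome genes, the flanking windows, the split by base composition and the removal of short RNA peaks were chosen after seeing the data. No paired analysis was possible because there is only 1 group. The depth of the lists is unknown, so a weak or absent peak cannot be told from low coverage.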

Other observations

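Several members had thresholded peaks outside their promoter windows. Upstream of asp-3, whose own peak is weak, summits with signals of 301 and 178 lay at 1908 bp and 1702 bp, in the window of sgca-1. Upstream of asp-1, a summit with a signal of 317 lay at 2706 bp, in the window of no protein-coding gene, and was stronger than the asp-1 peak in the window (206). Upstream of cpl-1, another summit with a signal of 245 lay at 3304 bp, also in the window of no gene. In the gene body of cpr-6, a summit with a signal of 199 lay 640 bp downstream of the start. Upstream of the unbound asp-14, a summit with a signal of 292 lay at 2525 bp, in the window of fah-1. These peaks were counted for no member, and which gene they act on was not tested.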
